A study of Gossypium barbadense and Gossypium hirsutum with 4 samples.

Results

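The 67639 regions described here are the islands of the Gossypium barbadense list, out of 156610 islands in the lists of the series, and none was left out on any of the 26 chromosomes, numbered 1 to 13 in each of the subgenomes A and D. An island is a run of sequence windows, joined across short gaps, called from reads of chromatin immunoprecipitated with an antibody against CENH3. Over the whole island the immunoprecipitated reads, scaled for library size, exceeded those of an input library made without antibody. The material was leaf of G. barbadense, line Hai7124 by the name of the deposited list, taken 4 weeks after planting, and nuclei were digested with MNase, the micrococcal nuclease that cuts between nucleosomes. There was 1 CENH3 ChIP library and 1 input library, so no value below has a replicate, no difference was given a p-value, and the intervals cover counting error alone. The other species of the series, Gossypium hirsutum, line TM_1 by the name of its list, had 1 library of each kind as well. Positions are in Mb or bases on the assembly of the deposited list, whose build is not given in the sources used here, and no gene or repeat annotation was assigned to them.

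CENH3 is the histone H3 variant that takes the place of canonical H3 in part of the nucleosomes at the centromere, and it marks the site where the kinetochore assembles and spindle fibres attach. In plants the CENH3 nucleosomes of a chromosome form a block in which they alternate with ordinary H3 nucleosomes, usually within repeats such as satellites and centromeric retrotransposons. G. barbadense is an allotetraploid cotton, with an A and a D subgenome from different diploid ancestors, so that each A chromosome has a homoeologue of the same number in D. ChIP reads per island divided by input reads measure the enrichment of CENH3 DNA over what the same sequence yields without selection.

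The ratio used throughout is ChIP reads divided by input reads, times 1.64, the constant that the list itself applies for library size. For a single island the input was set to at least 3 reads, so the ratio of an island with 0 input reads is a lower bound, and sums over islands used the reads as deposited. The list held 4068080 ChIP and 2164077 input reads over 102 Mb of islands. Those are reads inside islands and not library depths. The scaled ratio of an island had a median of 2.49, with an interquartile range of 1.87 to 4.59, a 99th percentile of 65.1 and a maximum of 243. A ratio of 4 or more was reached by 28.6% of the islands (19324), of 8 or more by 16.5% (11127), of 16 or more by 9.15% (6192) and of 32 or more by 4.55% (3078). The islands of ratio 16 or more were highly clustered, and the clusters are the subject of the next paragraphs. Of the islands of ratio 4 or more, 44.6% (8624) lay in the domains described there and 10700 lay elsewhere.

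The rule used here draws exactly 1 CENH3 domain on each of the 26 chromosomes, so that count is not a result. After smoothing over 5 bins, each domain's maximum was at least 3.50 times the highest bin more than 2 Mb outside the domain. A domain was the run of 100 kb bins around the chromosome's maximum of length-weighted log2 ratio that stayed above 25% of the way from the chromosome's median to that maximum. The 26 domains were 1.47 ± 0.167 Mb wide (SD over chromosomes, which are not replicates), from 1.2 Mb on A02, A11 and D04 to 1.9 Mb on D08. They took up 1.75% of chromosome length and held 13.2% of the islands, 35.1% of the ChIP reads in islands and 4.62% of the input reads in islands. The length of a chromosome, here and for relative positions, arm ratios, densities and zones below, was taken as the end of its last island. Over all domains the 8940 islands held 1428229 ChIP and 99942 input reads, a ratio of 23.4 with a 95% exact binomial (Clopper-Pearson) interval of 23.3 to 23.6. Domains were placed with the ratio itself, so their high ratio describes them and tests nothing.

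**Figure D1:**
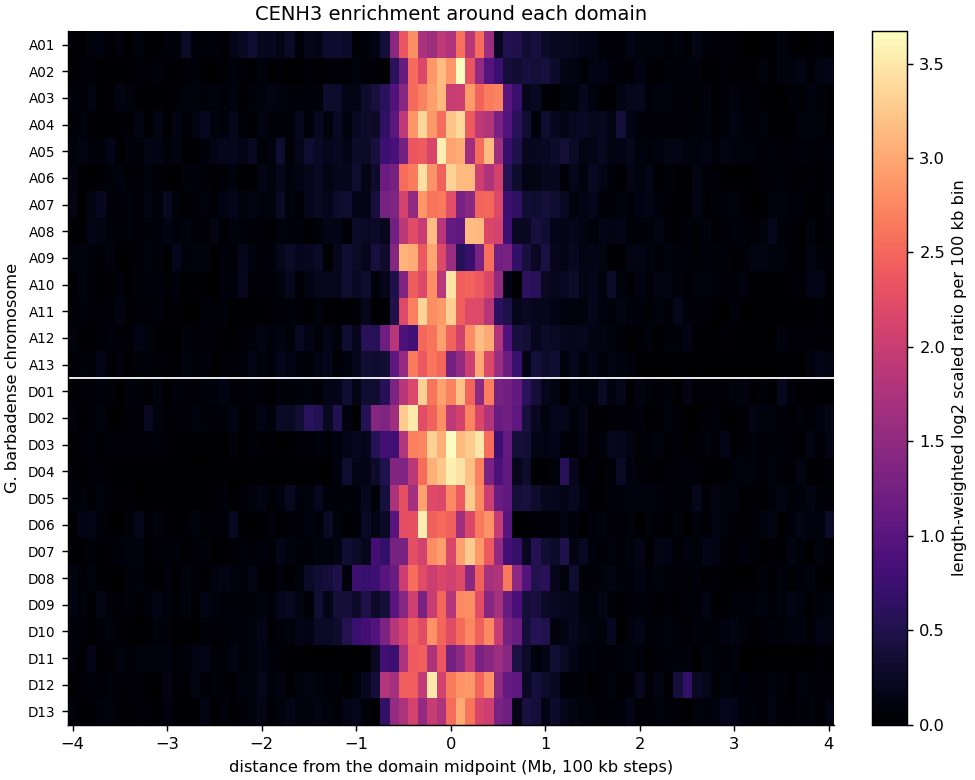
Length-weighted log2 scaled ratio in 100 kb bins (colour) within 4 Mb of the domain midpoint (horizontal axis, Mb) for the 26 chromosomes (rows, A above and D below the white line). Each row has 1 bright block of 1.2 to 1.9 Mb, broken by darker bins inside it, for example right of the midpoint on A09.

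The input counts have a property that bears on these intervals. Of the islands with few input reads, 129 held 1 input read, 2455 held 2, 290 held 3 and 2273 held 4. Among islands with 1 to 10 input reads, 81.8% had an even number, and no island had so few ChIP reads. Over all islands input counts were even in 62.0% and ChIP counts in 51.0%, and among counts of 20 to 40 reads in 57.0% and 53.7%. Input reads thus did not behave as independent counts, and the intervals are too narrow. Counting input in units of 2 reads widened the pooled interval to 23.2 to 23.6, still small beside the differences between chromosomes.

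The positions and reads of the domains are given by homoeologous pair. On A01 the domain ran from 64.3 to 65.7 Mb, with its midpoint at 56.5% of the chromosome, and 47741 ChIP against 3074 input reads gave a ratio of 25.5 (95% interval 24.6 to 26.4). On D01 it ran from 33.9 to 35.4 Mb, centred at 54.7%, with 54664 against 3908 reads and a ratio of 22.9 (22.2 to 23.7). The pair thus shared a nearly median position, with A above D in this ratio. In the central 33.3% of the domain width the order was reversed, at 45.6 on A01 and 56.6 on D01. On A02 the domain ran from 67.2 to 68.4 Mb, centred at 66.5%, with 62732 against 6226 reads and a ratio of 16.5 (16.1 to 17.0). On D02 it ran from 32.2 to 33.8 Mb, centred at 47.9%, with 53671 against 3560 reads and a ratio of 24.7 (23.9 to 25.6). A02 had the lowest whole-domain ratio and the most input reads of all 26 domains. In the outer parts of its width the ratio was 9.92, also the lowest of the 26. In the central 33.3% it was 40.02, within the range over chromosomes of 34.9 on A09 to 58.5 on D03. The median ratio of its single islands was 22.2, where the lowest was 18.6 on D08. On A03 the domain ran from 38.3 to 39.8 Mb, centred at 36.3%, with 62341 against 3847 reads and a ratio of 26.6 (25.7 to 27.5). On D03 it ran from 13.8 to 15.1 Mb, centred at 26.9%, with 59903 against 2934 reads and a ratio of 33.5 (32.3 to 34.8). Here ChIP reads were similar and D03 had fewer input reads.

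On A04 the domain ran from 31.4 to 32.8 Mb, centred at 39.1%, with 66767 ChIP against 4567 input reads and a ratio of 24.0 (23.3 to 24.7). On D04 it ran from 27.1 to 28.3 Mb, centred at 48.3%, with 43823 against 2121 reads and a ratio of 33.9 (32.4 to 35.4), the highest value of the species. D04 had fewer reads than A04 in both libraries, and the input fell short by more. On A05 the domain ran from 55.2 to 56.5 Mb, centred at 51.9%, with 66495 against 5702 reads and a ratio of 19.1 (18.6 to 19.7). On D05 it ran from 42.1 to 43.5 Mb, centred at 64.4%, with 46562 against 2353 reads and a ratio of 32.5 (31.1 to 33.8). Pair 5 had the lowest quotient of A over D ratios, at 0.589. In the central 33.3% of the width the ratios were 43.9 on A05 and 48.5 on D05, and in the outer parts 13.1 and 25.6. On A06 the domain ran from 52.3 to 53.7 Mb, centred at 44.9%, with 67826 against 4486 reads and a ratio of 24.8 (24.1 to 25.6). On D06 it ran from 32.8 to 34.2 Mb, centred at 53.4%, with 58482 against 3704 reads and a ratio of 25.9 (25.05 to 26.8). The intervals of pair 6 overlapped.

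On A07 the domain ran from 58.6 to 60.2 Mb, centred at 62.6%, with 50391 ChIP against 3237 input reads and a ratio of 25.5 (24.6 to 26.5). On D07 it ran from 40.3 to 41.8 Mb, centred at 71.8%, with 51739 against 4231 reads and a ratio of 20.1 (19.4 to 20.7). A single D07 island, at 41745201 to 41747200, held 585 of those input reads at a ratio of 1.83, and without it the domain ratio was 23.0. On A08 the domain ran from 48.7 to 50.2 Mb, centred at 40.9%, with 51905 against 4301 reads and a ratio of 19.8 (19.2 to 20.4). On D08 it ran from 26 to 27.9 Mb, centred at 39.8%, with 49173 against 3780 reads and a ratio of 21.3 (20.6 to 22.1). Pair 8 had the closest relative positions, 1.12 percentage points apart. On A09 the domain ran from 18.4 to 19.9 Mb, centred at 24.2%, with 55457 against 5446 reads and a ratio of 16.7 (16.2 to 17.2). On D09 it ran from 21.0 to 22.5 Mb, centred at 40.4%, with 41820 against 2835 reads and a ratio of 24.2 (23.3 to 25.1). Relative to chromosome length A09 was the domain nearest to an end, with a long arm 3.13 times its short arm.

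On A10 the domain ran from 46.1 to 47.4 Mb, centred at 41.9%, with 58776 ChIP against 3603 input reads and a ratio of 26.8 (25.9 to 27.7). On D10 it ran from 38.0 to 39.8 Mb, centred at 58.2%, with 63472 against 4978 reads and a ratio of 20.9 (20.3 to 21.5). Pair 10 had the highest A over D quotient of ratios, at 1.28. In the central 33.3% of the width the order was reversed, at 38.4 on A10 and 43.4 on D10. On A11 the domain ran from 66.9 to 68.1 Mb, centred at 58.1%, with 62708 against 3882 reads and a ratio of 26.5 (25.6 to 27.4). On D11 it ran from 44.3 to 45.8 Mb, centred at 62.5%, with 30307 against 2058 reads and a ratio of 24.2 (23.1 to 25.3). D11 had the fewest reads of the 26 domains in each library, yet a ratio at the middle of the range. On A12 the domain ran from 32.1 to 33.7 Mb, centred at 32.4%, with 60947 against 4480 reads and a ratio of 22.3 (21.6 to 23.0). On D12 it ran from 17.4 to 19.0 Mb, centred at 29.97%, with 58719 against 4065 reads and a ratio of 23.7 (22.9 to 24.5). The intervals of pair 12 overlapped slightly. On A13 the domain ran from 33.9 to 35.4 Mb, centred at 30.7%, with 54386 against 3814 reads and a ratio of 23.4 (22.6 to 24.2). On D13 it ran from 27.5 to 29.0 Mb, centred at 46.1%, with 47422 against 2750 reads and a ratio of 28.3 (27.2 to 29.4). By arm ratio 17 of the 26 chromosomes were at 1.7 or below, the usual bound of the metacentric class, 8 of them in A and 9 in D.

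The spread of the domain ratios went with input more than with ChIP. Islands of a domain held 58.6 (D11) to 111 (A11) ChIP reads per kb of island and 3.76 (D04) to 10.4 (A02) input reads per kb. Across the 13 A chromosomes the ratio had a Spearman correlation of -0.76 with input reads per kb and of 0.23 with ChIP reads per kb. Across the 13 D chromosomes these were -0.77 and 0.37. The ratio contains both counts, so the coefficients describe which of them varied with it, and all points come from the same libraries. The 3 A domains of lowest ratio, A02, A09 and A05, were the 3 with the most input reads per kb, at 10.4, 8.60 and 8.77, whereas their ChIP reads per kb, at 105, 87.6 and 102, lay within the range of the other A domains. At D03, D04 and D05, the domains of highest ratio, input was 4.56, 3.76 and 3.97 reads per kb and ChIP was 93.2, 77.8 and 78.6 reads per kb. Leaving out of each domain the island with the most input reads moved the ratios to between 16.6 (A09) and 34.9 (D04).

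**Figure D2:**
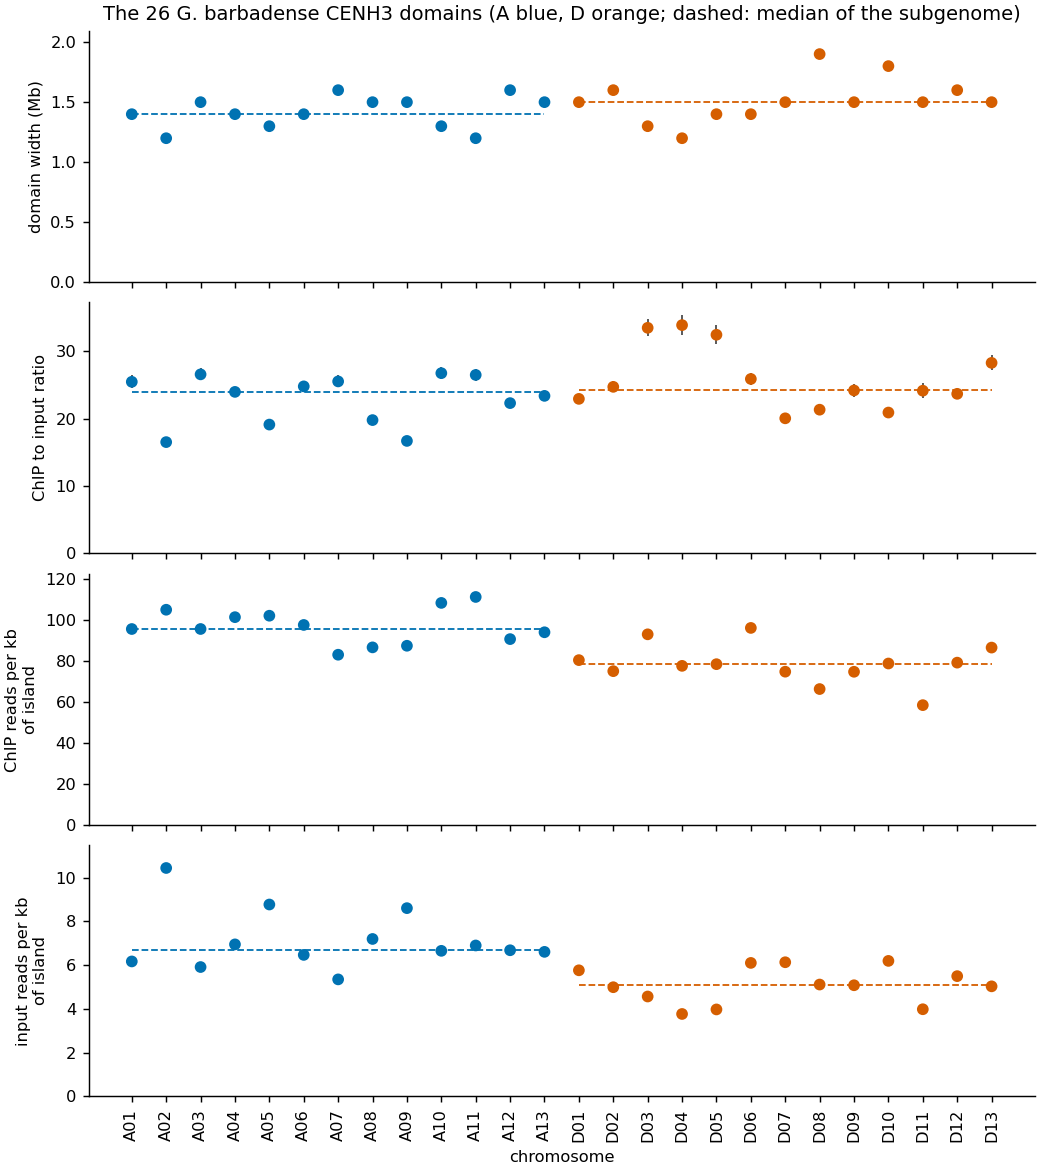
Width in Mb, ChIP to input ratio with its 95% exact binomial interval, ChIP reads per kb of island and input reads per kb of island (vertical axes, from the top) for the domain of each chromosome (horizontal axis; A blue, D orange, dashed lines the median of the 13 chromosomes). The A domains have more reads per kb in each library, and the medians of the ratio are close.

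The subgenomes differed in reads per kb of domain island. ChIP reads per kb were 97.0 ± 8.59 on A and 78.6 ± 9.92 on D chromosomes (SD over 13 chromosomes), higher on A in 13 of 13 pairs. Input reads per kb were 7.13 ± 1.37 on A and 5.09 ± 0.839 on D, higher on A in 12 of 13 pairs, the exception being pair 7. The ratio, in which the 2 differences partly cancel, was 22.9 ± 3.69 on A and 25.8 ± 4.75 on D, with D higher in 9 of 13 pairs. The median ratio of single islands in a domain was 23.7 ± 2.84 on A and 23.6 ± 3.40 on D, with D higher in 7 pairs and A in 6. In the central 33.3% of the domain width the ratio of summed reads was 41.0 ± 3.83 on A and 49.1 ± 7.05 on D. D was higher there in each pair except pair 7, with 44.9 on A07 and 38.5 on D07. In the outer parts the ratio was 17.2 ± 3.62 on A and 18.6 ± 4.09 on D. The A chromosomes of pairs 2 to 5 carry the known reciprocal translocations of tetraploid cotton (A02 with A03, A04 with A05), so same-numbered chromosomes there are not full counterparts. In these 4 pairs, a split made after the values were seen, the whole-domain ratio was higher on D in 4 of 4. The means were 31.1 on D and 21.6 on A. In the other 9 pairs the whole-domain ratio was higher on D in 5, and its means were 23.5 on each side. Their A over D quotients of ratios ran from 0.690 in pair 9 to 1.28 in pair 10. Pair 9 was below pairs 3 (0.794) and 4 (0.708). No test was run on chromosomes of 1 library.

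Within a domain the islands covered between 34.5% (D11) and 49.97% (A05) of the sequence, in 232 (A02) to 443 (D08) pieces. The longest stretch with no island ranged from 16 kb on D04 to 62.6 kb on A11, and 21 of the 26 domains had at least 1 such stretch of 20 kb or more. Stretches that ran up to a domain boundary were counted too. At 100 kb resolution the lowest bin of any domain was an outermost bin of D13, with a length-weighted log2 ratio of 0.15. The highest bin of that domain had 3.01. Such edge bins reflect where the boundary was drawn and are not breaks inside a domain. Nearer the centre, the A09 bin 0.1 Mb after the midpoint had 0.55, where the highest bin of that domain had 3.08. D02 had the highest minimum, with a lowest bin of 1.04, also at its edge, and a highest of 3.51. An uncovered stretch has no value in the list, so whether it lacked CENH3, lacked uniquely placed reads or fell below the calling threshold cannot be told apart.

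In the central 33.3% of the width the ratio had a median over chromosomes of 44.0 (range 34.9 on A09 to 58.5 on D03), against 18.6 (range 9.92 on A02 to 25.6 on D05) in the outer parts. Domain edges were drawn where the signal falls off, so a lower ratio in the outer parts follows largely from the rule. Coverage by islands differed less, at a median of 47.1% in the middle and 41.7% outside it. Of the ChIP reads in islands of ratio 8 or more within 2 Mb of the midpoint, the inner 90% spanned a median of 0.976 Mb, from 0.670 Mb on A02 to 1.2 Mb on D08, narrower than the domains that the threshold drew. The point that divides these reads equally lay within 75.6 kb of the domain midpoint on 23 chromosomes. On D02 it was offset by -205 kb, on A09 by -199 kb and on D11 by -144 kb, where a negative offset is towards the first base of the chromosome.

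The ChIP and input reads had different shapes across a domain. At a distance of 2 Mb before the midpoint, islands held a median over the 26 chromosomes of 2.24 ChIP and 1.59 input reads per kb of sequence. At 0.7 Mb before the midpoint the medians were 7.92 and 2.42, at 0.2 Mb before it 57.1 and 2.13, and at the midpoint 49.3 and 1.56. On the other side they were 51.9 and 1.92 at 0.2 Mb, 8.91 and 3.93 at 0.7 Mb and 1.98 and 1.28 at 2 Mb. ChIP thus formed a plateau about 1 Mb across, and input in islands rose towards the edges of the domain and dipped at its centre, where coverage by islands was 43.4%. Input reads were counted in called islands alone, and calling itself compares ChIP with input, so the dip is not a profile of input over the whole interval.

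**Figure D3:**
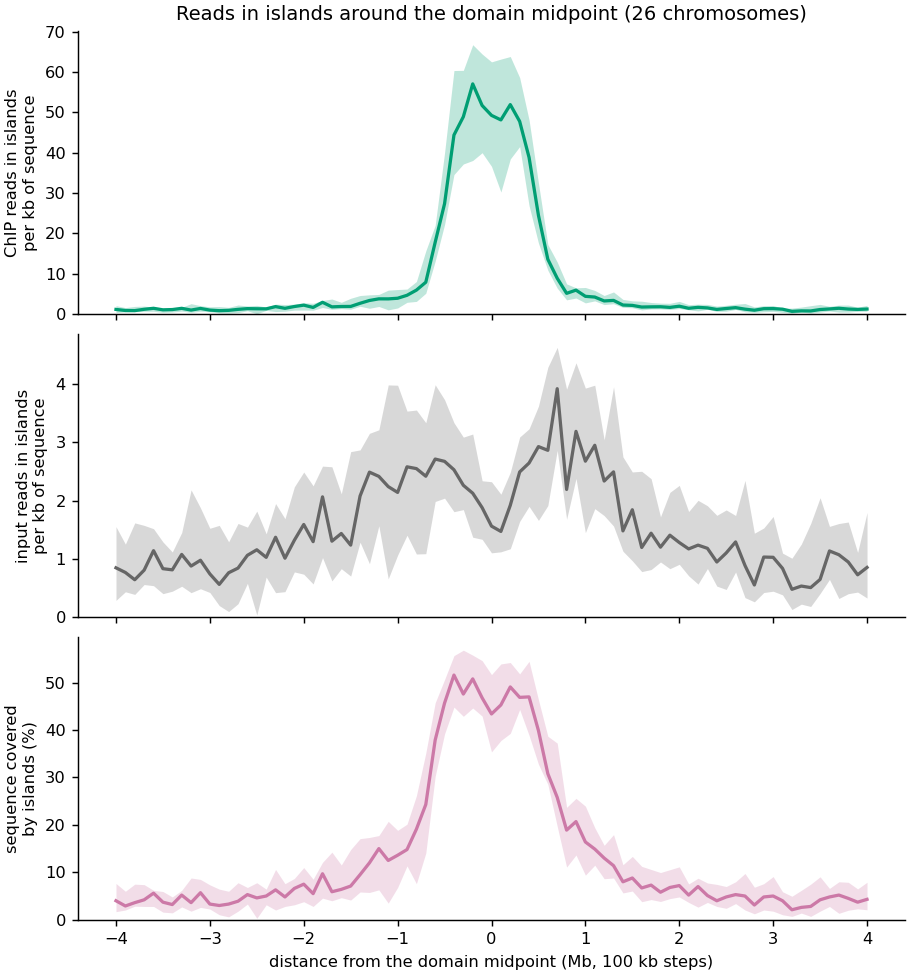
ChIP reads in islands per kb of sequence, input reads in islands per kb of sequence and percentage of sequence covered by islands (vertical axes, from the top) against the distance from the domain midpoint (Mb, 100 kb steps). Lines are medians and bands interquartile ranges over the 26 chromosomes; ChIP forms a plateau, while input has its lowest values between the edges near the midpoint.

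The most enriched single islands had almost no input reads. The chromosome maxima among domain islands with 40 or more ChIP reads ranged from 113 to 243. With the input set to at least 3 reads, the highest was on D03 at 14233801 to 14239000, with 592 ChIP and 4 input reads and a ratio of 243 (95% interval 94.3 to 894). Next came A05 at 56111401 to 56115600 with 416 ChIP and 2 input reads, D01 at 34318801 to 34322200 with 409 ChIP and 0 input reads, A07 at 59335601 to 59340800 with 403 and 2, and D10 at 38853601 to 38858800 with 396 and 2. Their ratios with the input set to 3 reads were 227, 224, 220 and 216. On reads as deposited, A05, A07 and D10 would be at 341, 330 and 325, above D03. The D02 maximum, with 333 ChIP reads and 1 input read, would be higher still, at 546. The maxima of D01, A02, A03, A04 and D12, with 0 input reads, have no upper limit, so the order depends on the floor. With the same floor the lowest chromosome maxima were on A09 at 18686801 to 18689400, with 206 ChIP and 2 input reads, on A08 at 49328801 to 49333600, with 306 and 4, on D12 at 18415601 to 18418200, with 230 and 0, on A02 at 67809801 to 67811600, with 247 and 0, and on D07 at 41241601 to 41244800, with 249 and 2. These ranks rest on the floor as well, since D12 and A02 are lower bounds and A09 would be at 169 on reads as deposited, above the 125 of A08. Islands with no input read made up 23.5% of the domain islands (2102 of 8940), from 17.1% on D03 to 30.1% on D11, and 0.608% of the islands elsewhere. Domains were placed with a ratio that few input reads raise, so this contrast describes them and tests nothing.

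Islands next to a domain were intermediate, and the ratio reached the level of the arms between 1 and 2 Mb from the edge. In the first 50 kb beyond an edge the 278 islands had a median ratio of 4.33, and 23.4% reached 8. The median was 3.51 between 50 and 100 kb, 2.85 between 200 and 300 kb, 2.42 between 0.5 and 1 Mb, 2.22 between 1 and 2 Mb and 2.20 between 2 and 5 Mb. Between 10 and 20 Mb it was 2.24. The share of islands at 8 or more fell to 3.49% between 1 and 2 Mb and was 5.03% between 10 and 20 Mb. On A chromosomes alone the lowest of these shares, 1.85%, lay between 5 and 10 Mb, and on D chromosomes the lowest, 5.41%, between 1 and 2 Mb. D chromosomes were above A chromosomes at each of these distances, with 30.5% against 15.0% at 8 or more in the first 50 kb and 7.86% against 2.71% between 10 and 20 Mb.

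By zone, the median island ratio was 23.5 in domains, 2.36 in the flanks within 5 Mb, 2.23 in the rest of the arms and 2.77 in the first and last 5% of the chromosome. The corresponding input reads per kb of island, as medians over islands, were 4, 20, 21 and 17.9, and ChIP reads per kb were 79.2, 29.2, 29.5 and 31.3. Domain islands had the most ChIP and the fewest input reads per kb of these zones. Domains were drawn from the ratio of the same reads, so these medians and the shares that follow describe them and test nothing. Of islands of ratio 16 or more, 96.3% lay in domains (5962 of 6192), and of islands of 32 or more, 99.9% (3074 of 3078). At the lower ratio of 8 it was 71.6%, leaving 3155 islands elsewhere.

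**Figure D4:**
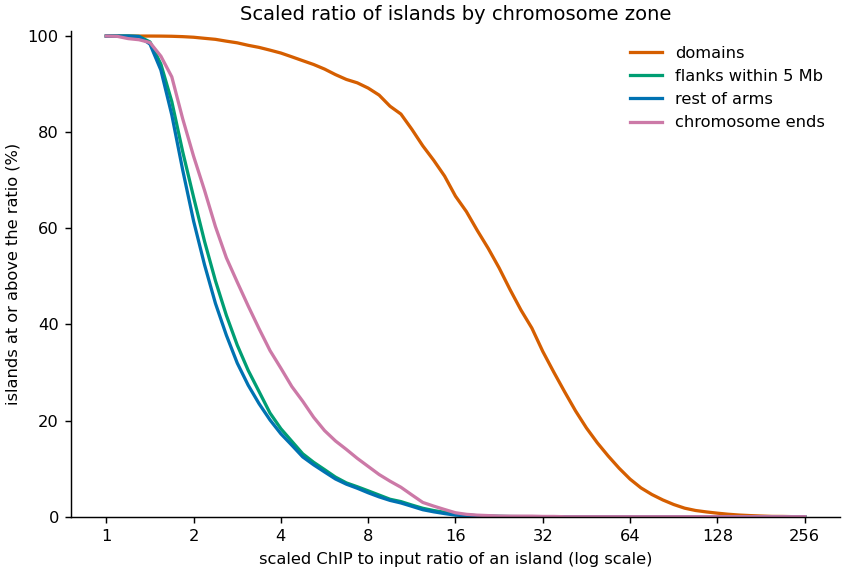
Percentage of islands (vertical axis) at or above a given scaled ratio (horizontal axis, log scale) in the domains, the flanks within 5 Mb, the rest of the arms and the chromosome ends. At a ratio of 8 the curves stand at 89.2% in domains, 5.38% in flanks, 4.98% in the rest of the arms and 10.5% at the ends.

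The 3155 islands of ratio 8 or more outside domains rested on few reads. They had a median of 26 ChIP and 4 input reads, and 10.8% of them (340) had 40 or more ChIP reads, against 75.9% of the 7972 such islands inside domains, whose medians were 78 and 4 reads. With that minimum, 94.7% of the islands of ratio 8 or more were in domains. Outside domains there were 1.05 islands of ratio 8 or more per Mb on A and 2.20 per Mb on D chromosomes. With 40 or more ChIP reads the densities were 0.0851 and 0.284 per Mb, 3.34 times as high on D.

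Beyond domains and flanks, with the input set to at least 3 reads, the island of highest ratio with 40 or more ChIP reads was on D07 at 251601 to 252200, with 92 ChIP and 4 input reads and a ratio of 37.7 (95% interval 14.2 to 141). D07 also held the next, at 236401 to 237400, with 177 and 8 reads and a ratio of 36.3 (18.0 to 85.4), and those at 240401 to 242000, with 193 and 10 reads, and at 176601 to 177800, with 54 and 2 reads. These 4 of the 10 highest lay within 75.6 kb of each other. The remaining 6 were single islands on D03 at 45107001 to 45108600 (59 ChIP and 3 input reads), A13 at 105140801 to 105141800 (53 and 0), A02 at 17530801 to 17532000 (52 and 2), A09 at 52256201 to 52257200 (47 and 1), D10 at 49700401 to 49702000 (46 and 2) and D04 at 3823001 to 3824400 (45 and 3). Their ratios, from 24.6 to 32.3, were within the interquartile range of domain islands, which was 13.1 to 38.8. The order of these islands depends on the floor: on reads as deposited the A09 island would be at 77.1 and A13 would have no upper limit.

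The start of D07 was unlike that of the other chromosomes. Leaving out the island at its first base, the first 280.4 kb of D07 held 68 islands that covered 33.8% of the sequence, and 28 of them had a ratio of 8 or more, 41.2% against 16.5% in the list. The next island began at 810801. Over the same stretch the other 25 chromosomes had 1 to 20 islands each, a median of 6, and at most 1 of ratio 8 or more. The reads of the D07 stretch, 5051 ChIP and 1444 input, gave a ratio of 5.74 (95% interval 5.41 to 6.09), well under the 20.1 of the D07 domain. On the other chromosomes the ratio ran from 1.32 to 4.63, and the upper values came from stretches with few reads. The stretch was picked after the values were seen and its end was set at the last D07 island before the gap, so the contrast is a description.

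**Figure D5:**
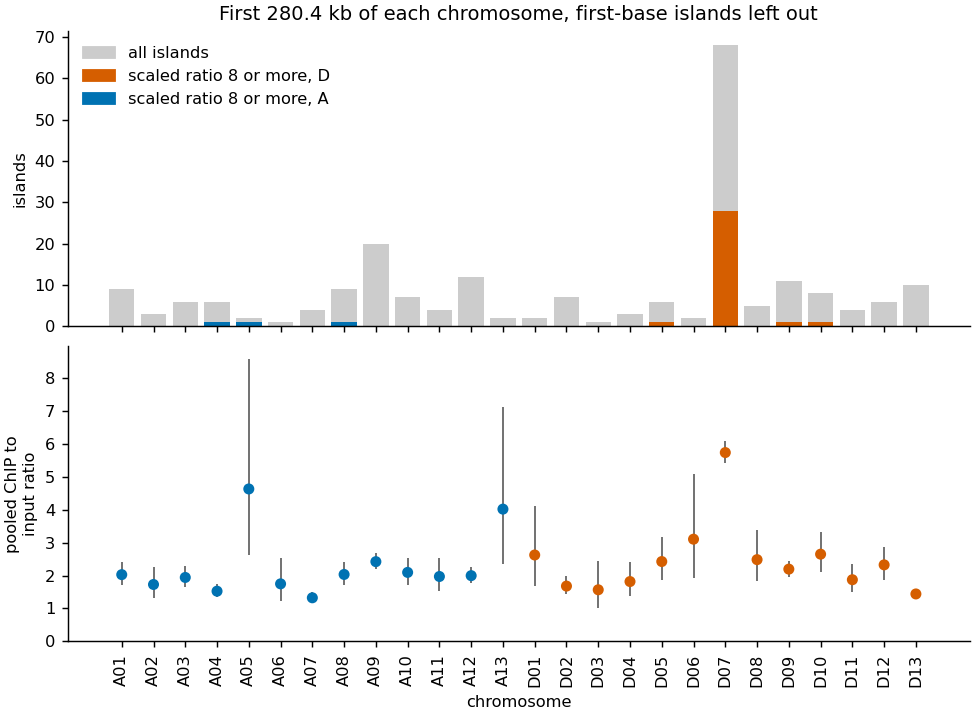
Number of islands (top; grey all islands, colour those of scaled ratio 8 or more) and pooled ChIP to input ratio with 95% exact binomial interval (bottom) in the first 280.4 kb of each chromosome, first-base islands left out. D07 has 68 islands, 28 of them at 8 or more, and a ratio of 5.74.

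A second site on the same chromosome came closest to its domain on D07, A07, D05, A09 and A05. The domain maximum was 3.50, 4.36, 4.74, 4.87 and 5.20 times the highest smoothed bin more than 2 Mb away, which was centred at 0.05, 84.05, 49.25, 12.15 and 66.45 Mb. Around these bins the ratios of summed reads were 1.83, 2.06, 1.85, 2.10 and 1.90, in 69, 84, 44, 78 and 64 islands. The second sites were thus dense in islands but low in summed ratio. That of D07 is the stretch at the chromosome start, and its low value rests on the first-base island with 8094 input reads, without which it is the 5.74 given above. On the other chromosomes the quotient ran from 6.05 on D08 to 30.5 on A06. When bins were filled by covered length without regard to the ratio, the maximum on A05, A07 and D05 left the domain, and 20 of 26 chromosomes met the criterion of a maximum at least 2 times the second site.

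Beside the G. hirsutum list, computed the same way with that list's constant of 1.2, the G. barbadense list had a heavier upper tail. Ratios of 8 or more were reached by 16.5% of the G. barbadense islands and 2.65% of the 88971 G. hirsutum islands, and ratios of 32 or more by 3078 and 16 islands. The medians were 2.49 and 2.17. With 1 ChIP library per species, species, antibody yield and depth cannot be told apart in these differences, and no test was possible.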

How the data were processed

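Leaf CENH3 ChIP and input libraries of G. barbadense, 1 each, were compared. Per the submitters' processing notes, Trimmomatic, Bowtie2 and SICER were used; neither a version nor the genome build is given in the sources used here. SICER settings read from the list names were windows of 200 bp, gaps of 400 bp, a false discovery rate of 0.01 and the tag uniq. The lists have no header. In SICER's column order, the authors deposited raw counts of ChIP and input reads per island, a p-value with a false discovery rate, and a fold, the ratio of ChIP to input reads times 1 constant. These deposited folds give islands without input reads very high values, so the ratio was recomputed with a floor of 3 input reads and the list's constant, 1.64.

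Bins of 100 kb took island overlap times log2 ratio (ratios below 1 set to 1) and were smoothed over 5 bins. Domains used a threshold of 25% and bridged up to 2 bins. An island belonged to the zone of its midpoint. On 26 simulated chromosomes with planted domains, 26 were recovered, with midpoints off by at most 0.115 Mb and widths too large by 0 to 0.3 Mb. The planted islands all had ratios of 16 or more in sharp-edged blocks, and the background, spread evenly, had ratios below 4. In the list 66.7% of domain islands reached 16 and 18.2% of the islands outside reached 4. The simulation was thus an easier case, and it checks the code without measuring how accurate the placement is in the list. Regions named are each chromosome's domain, the top domain islands of the 5 highest and 5 lowest chromosomes, the 10 top islands outside domains and flanks, the 5 islands with most input reads and the 5 nearest second sites. Members, lists and rules were chosen with earlier results of these data known. Library totals were not used here. Python 3.11.15, numpy 2.4.6, pandas 2.3.3, scipy 1.17.1 and matplotlib 3.10.9 were used.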

Additional observations from a re-analysis of the deposited data

How the results depend on the processing

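The 7 results were recomputed under 10 other settings, 9 of them planned and 1, leaving out islands that start at the first base, added after the data were seen; that setting changed no call. The pooled domain ratio was 23.7 with a floor of 1 input read, 23.2 with a floor of 10, 23.8 with the authors' fold, 31.8 with a 50% threshold, 25 from islands of 40 or more ChIP reads, 23.6 from islands of a false discovery rate of 1e-05 or less and 13.96 with covered length as the bin value. Median domain width was 1.1 Mb with the 50% threshold and 2 Mb with covered length. Covered length also gave 18.0% for the share of bin values inside domains, against 41.7%. The share of islands of ratio 8 or more inside domains was 97.9% with a floor of 10 input reads, 64.6% with covered length, 63.9% with the 50% threshold and 94.5% from islands of 40 or more ChIP reads with domains redrawn from them, a setting that left 8131 islands of ratio 4 or more. Domain midpoints stayed inside the domains on 26 chromosomes under 9 settings and on 23 with covered length. D had the higher ratio in 8 to 12 of 13 pairs. The causes were not tested. No paired analysis was possible because there is 1 library on each side. Few input reads limit single islands: for those with 0 to 4, intervals span several-fold and ranks depend on the floor. Islands were not overlapped between species.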

Other observations

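On 25 of the 26 chromosomes, A01 being the exception, an island began at the first base. These islands were 9.8 to 35 kb long and held 3353 to 10379 input reads each, with a median of 5686. Together they covered 0.403% of the island sequence and held 7.03% of the input reads in islands. Their ratios ran from 1.04 on A04 to 1.44 on D06, with a median of 1.17, so ChIP and input were high together. They held 64.3% of the input reads of the chromosome ends. Without them the pooled ratio of the ends was 2.55 instead of 1.67, and input there was 20.6 reads per kb of island instead of 52.4, close to the 23.0 of the rest of the arms.

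The island with the most input reads lay elsewhere, on A09 at 44232401 to 44248600, with 15269 ChIP and 12553 input reads and a ratio of 1.99 (95% interval 1.95 to 2.04). The next 4 were the first-base islands of A04 (10379 input reads), A06 (9341), A08 (8417) and D07 (8094). A09 also had the highest input per kb of island outside its domain, at 33.2 reads per kb against 20.004 to 31.1 on the other chromosomes. Without this island it had 29.8, below the 31.1 of D04. This A09 island is 24.3 Mb from the A09 domain, which had the second lowest ratio of the species; a link between them was not tested.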
